A study of Mus musculus with 2 samples.

Results

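Lef1, Axin2, Nkd1, Nkd2, Sfrp1, Sfrp2, Sfrp4, Dkk2, Dkk3 and Wif1 are 10 genes of the canonical Wnt pathway: a transcription factor, 3 feedback targets and 6 secreted antagonists. They were chosen by their measured UMI counts in these same libraries, so their levels and folds are a description and carry no test. All 10 were found by symbol among 31053 listed genes, of which 21439 had at least 1 UMI in the cells kept. The study sequenced single cells of mouse uterus on gestational day 4, with 1 library from Mettl14 f/f and 1 from Mettl14 d/d tissue. The labels do not spell this notation out; f/f usually stands for floxed alleles and d/d for their deleted form. Mettl14 encodes a subunit of the enzyme complex that writes N6-methyladenosine on RNA. Strain, age, number of animals, Cre driver and deleted exons are not given in the sources used here, and no other allele or agent is named for either group.

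Wnt proteins bind Frizzled receptors with an LRP5 or LRP6 coreceptor, and this halts the destruction complex that otherwise degrades β-catenin. The stabilised β-catenin joins TCF and LEF proteins on DNA and switches on targets, among them Axin2, Nkd1 and Nkd2, whose products act back on the pathway. SFRP proteins and WIF1 bind Wnt ligands outside the cell, while DKK proteins act mainly on the LRP coreceptors. In the uterus the pathway is known for gland formation, for the stromal response to an embryo and for patterning of muscle and stroma.

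LEF1 and TCF proteins often bind the letters CTTTGAA or CTTTGAT. These were searched on both strands of RefSeq promoters (GRCm38.p6, 250 bases before to 50 after a start), which gave 10 windows for 7 of the 10 genes. No window was matched for Sfrp1, Sfrp4 and Dkk3. Neither of those 7-letter motifs occurred in the 10 windows, and 8.65% of all 32851 promoters of this length held 1 of them. The shorter CTTTG, which both contain, occurred in 6 of the 10 windows, those of Lef1, Dkk2 and Wif1, and in 53.9% of all promoters. A window of Lef1 is shown because its RNA differed most in stroma, and that of Axin2 because it is the usual readout of the pathway. Lef1 had more than 1 window, and the one shown is the most upstream. Capitals mark CTTTG, and both windows lie on the plus strand, at chr3:131110047-131110346 for Lef1 and chr11:108920099-108920398 for Axin2.
Lef1 promoter: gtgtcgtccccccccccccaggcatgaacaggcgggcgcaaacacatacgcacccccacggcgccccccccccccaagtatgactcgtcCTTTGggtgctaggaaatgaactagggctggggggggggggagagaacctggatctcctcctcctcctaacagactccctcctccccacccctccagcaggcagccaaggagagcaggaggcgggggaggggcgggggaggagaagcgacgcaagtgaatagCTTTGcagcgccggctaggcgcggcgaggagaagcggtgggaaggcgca
Axin2 promoter: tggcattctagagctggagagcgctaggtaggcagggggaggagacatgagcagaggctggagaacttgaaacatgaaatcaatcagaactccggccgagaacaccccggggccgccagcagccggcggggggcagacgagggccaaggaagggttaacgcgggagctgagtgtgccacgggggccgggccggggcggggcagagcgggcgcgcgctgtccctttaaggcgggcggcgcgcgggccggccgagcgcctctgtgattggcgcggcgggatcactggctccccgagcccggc
The Lef1 window shown held CTTTG 2 times, the other Lef1 windows 2, 1 and 3 times, and the Axin2 window 0 times. A match is a run of letters and not a bound site, and a missing match says nothing of the factor.

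The writer complex often methylates the A of GGACT in RNA. The sense strand of 1 principal transcript per gene was searched for these letters (GENCODE vM21, GRCm38). The median over 21842 genes was 1.02 matches per kb, with quartiles of 0.558 and 1.52, and 13.0% of genes had no match. Axin2 had 5 matches (1.17 per kb), 4 of them in the coding part. Lef1 had 1 match (0.287 per kb), in its 5′ UTR. Sfrp2 had 0. The other genes lay between 0.436 per kb in Wif1 and 1.19 per kb in Dkk3. Windows of Lef1, Axin2 and Sfrp1 are shown with GGACT in capitals, each around the match nearest the end of the coding part. None of those shown lies in the coding part. The Lef1 match lies at chr3:131110902-131110906 in exon 1 of 12. That of Axin2 lies at chr11:108949544-108949548 in exon 11 of 11, in the 3′ UTR 151 bases after the last coding codon. That of Sfrp1 lies at chr8:23446498-23446502 in exon 3 of 3, in the 3′ UTR 12 bases after the last coding codon. Both distances count the stop codon. All 3 are on the plus strand.
Lef1 5′ UTR: tgaaggaagtGGACTtttcggtatt
Axin2 3′ UTR: gcctagggagGGACTggcgcctggg
Sfrp1 3′ UTR: atactggggcGGACTggggaagggg
No methylation was measured in these libraries, so the letters are given as sequence only.

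The f/f library held 8164 barcodes and the d/d library 6661, with 55080123 and 44745031 unique molecular identifiers (UMIs, each a counted RNA molecule). The filters left 7095 cells of f/f (median 6085 UMIs) and 5977 of d/d (median 5217), and 8 barcodes occurred in both. Cells were grouped here by markers into stroma-like, epithelium-like and other classes, named without the suffix from here on. Levels are CPM, the UMIs of a gene scaled to 1000000 UMIs summed over a class, with an exact Poisson 95% interval. A log2 fold is d/d over f/f, with a conditional exact 95% interval. These intervals, and the Clopper-Pearson intervals of shares, cover counting error only. With 1 library per genotype there is no replicate check and no p-value, and differences are between these libraries. Mettl14, the targeted gene, stood at 15.5 CPM in f/f against 5.53 in d/d over all kept cells, at 14.5 and 2.46 CPM in stroma and at 19.0 and 18.3 CPM in blood endothelium. Which exons were deleted is not given, and a 3′ end count need not come from them, so these UMIs do not measure intact Mettl14.

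Stroma was 66.4% of f/f cells (4708 cells) and 28.5% of d/d cells (1705 cells). Its clusters were mostly of 1 library, although the 10 genes had been left out of the clustering. They are named by 2 leading genes, the 10 genes skipped. In f/f, 41.7% of the stroma lay in the Angptl7 Fst part (1964 cells), with 1439 cells in the Hsd11b2 Map2 part and 588 in the Tex15 Col7a1 part. Lef1 was itself among the leading genes of the Tex15 Col7a1 part, and Sfrp4 among those of the Angptl7 Fst part. In d/d, 65.6% lay in the A2m Mmp2 part (1119 cells). A cluster of 1 library may be that library and not a cell type. Both libraries shared a Clec3b C3 part, with 338 f/f cells (7.18% of the stroma) and 507 d/d cells (29.7%). A cycling part led by Cenpf and Prc1 held 364 f/f and 50 d/d cells. The 7 stromal markers summed to 6366 CPM in f/f against 11507 in d/d stroma, and 15 immediate early genes to 3173 and 12862 CPM. The part of these shifts in the folds below was not tested.

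**Figure D1:**
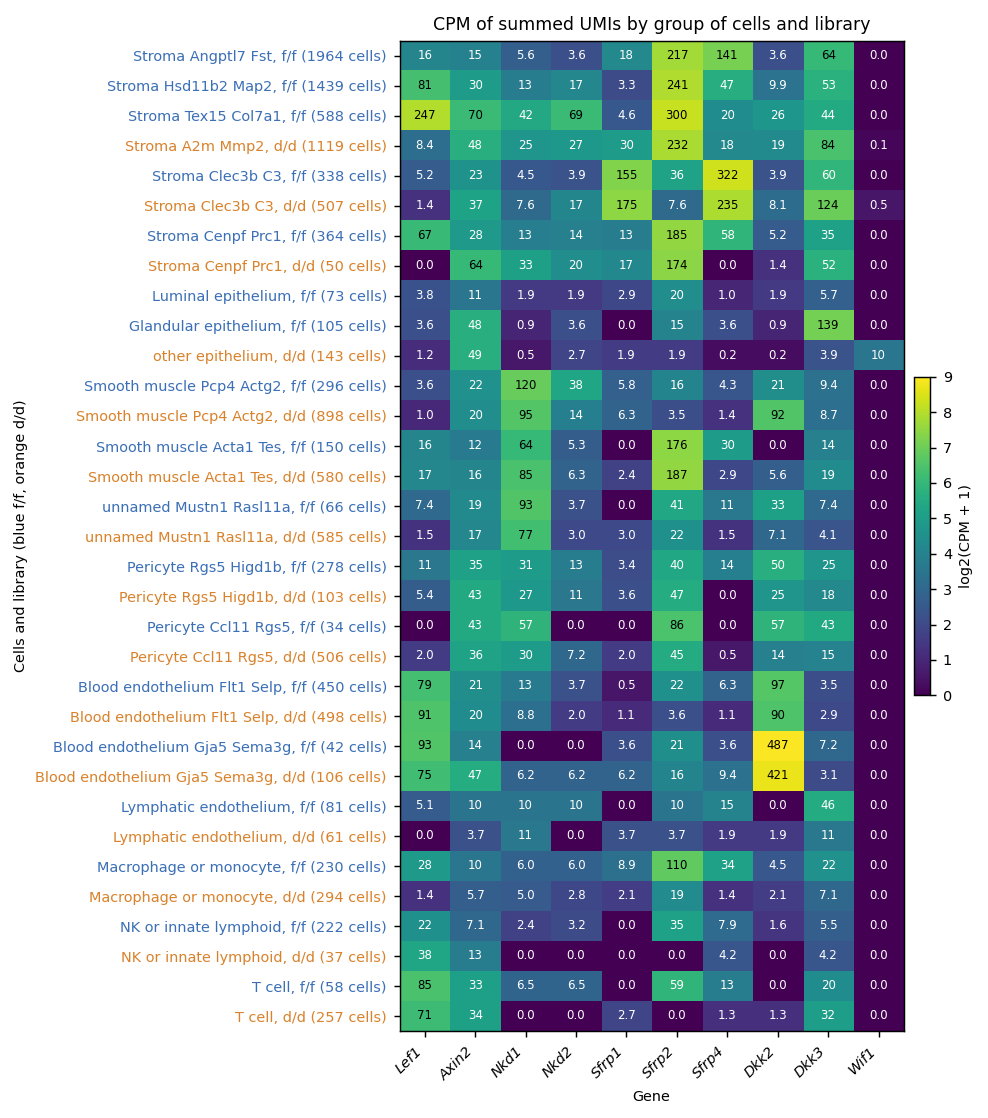
Heat map of CPM, printed in each cell and coloured as log2(CPM + 1), for the 10 genes (columns) in each group of cells and library (rows, blue f/f, orange d/d, groups of 34 cells or more). Lef1 reached 247 CPM in the f/f Tex15 Col7a1 stroma and Dkk2 487 CPM in the f/f Gja5 Sema3g endothelium.

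In stroma as a whole Lef1 was lower in d/d and Sfrp1 higher. A gene was counted as lower or higher at 2-fold or more, among genes with at least 100 UMIs in the class over both libraries. Of the 10 genes 9 had that many, and 1 of them was lower, 1 higher and 7 were neither. Of all 11582 genes measured in stroma, 6.4% were lower and 6.92% higher by the same rule. The 9 genes had a median log2 fold of 0.70, beside -0.14 over all genes. These counts describe genes picked for this contrast, and nothing is read from them. Wif1, with 2 UMIs in d/d stroma and 0 in f/f stroma, was not counted.

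Lef1 (chromosome 3, 131110471 to 131224356, plus strand, GRCm38) encodes a transcription factor that binds β-catenin. Its level was 68.1 CPM in f/f stroma (65.3 to 70.9; 2302 UMIs) against 6.84 in d/d stroma (5.49 to 8.42; 89 UMIs). The log2 fold was -3.32 (-3.64 to -3.01), and the f/f library was the high one. At least 1 Lef1 UMI was found in 26.0% of f/f stromal cells (24.8 to 27.3) and 3.81% of d/d stromal cells (2.95 to 4.83). With each cell thinned to 2000 UMIs the shares were 9.51% and 1.19%, without 248 f/f and 110 d/d cells that were shallower. Beside them, the Pcp4 Actg2 part of smooth muscle had a Lef1 UMI in 1.69% of its f/f cells (0.551 to 3.90) but 0.557% (0.181 to 1.29) of those from d/d. The median depth of that part was 4605.5 (f/f) and 5250.5 UMIs (d/d), against 6598 and 6959 in stroma. The d/d stromal share lay above that of this part and below that of the Acta1 Tes part of smooth muscle, at 7.07% in d/d (5.12 to 9.47). How much of the Lef1 in d/d stroma is free RNA was not tested.

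Within the f/f stroma Lef1 was graded over the parts. It stood at 247 CPM in the Tex15 Col7a1 part (231 to 264), where 62.9% of cells had a UMI. The Hsd11b2 Map2 part had 81.3 CPM (76.1 to 86.8) and the cycling part 67.2 CPM (59.3 to 75.9). The Angptl7 Fst part had 16.3 CPM (14.2 to 18.5) and the Clec3b C3 part 5.19 CPM (2.24 to 10.2). No interval overlapped its neighbour's in this order. In d/d, 85 of the 89 stromal UMIs lay in the A2m Mmp2 part, at 8.43 CPM (6.74 to 10.4), against 1.43 CPM (0.294 to 4.17) in the Clec3b C3 part.

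In the 2 parts present in both libraries the data on Lef1 were unequal in depth. The 364 f/f cells of the cycling part had 260 Lef1 UMIs and its 50 d/d cells had 0, which allows a share of up to 6% by 3 counts of the total (7.11% by Clopper-Pearson). Counting 0 as 3 UMIs over the part and taking the f/f count as it stands, the level was at least 15.5-fold lower. The conditional interval, which also holds the f/f counting error, ends at a log2 fold of -3.64. In the Clec3b C3 part 8 f/f UMIs stood against 3 from d/d. Its log2 fold of -1.86 (-4.41 to 0.20) has an interval that holds 0. With doublets kept it was -3.35 (-5.70 to -1.67), on 32 and 3 UMIs, and the interval lay below 0 in 3 of the 8 alternatives run.

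Outside the stroma Lef1 was found in both libraries, with the highest levels of the named classes in blood endothelium and T cells. Blood endothelium had 79.7 CPM in f/f (71.7 to 88.3) against 89.9 in d/d (81.6 to 98.9), a log2 fold of 0.17 (-0.03 to 0.38). T cells had 84.6 CPM in f/f (45.1 to 145; 58 cells) against 71.4 in d/d (53.5 to 93.4; 257 cells). Smooth muscle had 7.17 CPM in f/f (14 UMIs) against 7.92 from d/d (69 UMIs). Its log2 fold there was 0.14 (-0.70 to 1.09), and it was -1.18 with doublets kept. The stromal and the endothelial intervals of the fold do not overlap, but the difference between the classes was not tested over samples. In epithelium Lef1 had 8 UMIs from f/f cells and 5 from d/d cells. Pericytes and macrophages had less Lef1 in d/d, on fewer than 100 UMIs each. Pericytes went from 10.4 CPM in f/f (19 UMIs) to 2.78 in d/d (7 UMIs). Their fold, in log2, was -1.90, and its interval ran from -3.40 to -0.59. Macrophages went from 28.3 CPM in f/f (19 UMIs) to 1.42 in d/d (2 UMIs). Their fold was -4.32, and its interval ran from -7.47 to -2.27. The part of free RNA in these differences was not tested.

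The feedback targets were somewhat higher in d/d stroma, where Lef1 was lower. Axin2 encodes a scaffold of the destruction complex and is induced by the pathway it restrains. It stood at 27.7 CPM in f/f stroma (25.9 to 29.5) against 47.0 in d/d stroma (43.3 to 50.8), a log2 fold of 0.76 (0.61 to 0.91). Nkd1 and Nkd2 encode Naked cuticle proteins, which bind Dishevelled and dampen the signal. Nkd1 stood at 12.8 CPM in f/f (11.6 to 14.0) against 22.2 in d/d (19.7 to 24.9), a log2 fold of 0.80 (0.58 to 1.02). Nkd2 stood at 16.4 CPM in f/f (15.1 to 17.8) against 24.6 in d/d (22.0 to 27.4), a log2 fold of 0.58 (0.38 to 0.78). For each of the 3 genes the d/d library was the high one, with intervals that did not overlap, and all 3 stayed under 2-fold. As a mean of CPM per cell the log2 folds were 0.61 for Axin2, 0.41 for Nkd1 and 0.44 for Nkd2.

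Across the 3 large f/f parts these targets were graded in the same order as Lef1, lowest in Angptl7 Fst and highest in Tex15 Col7a1. Axin2 went from 14.6 through 30.2 to 69.9 CPM over the Angptl7 Fst, Hsd11b2 Map2 and Tex15 Col7a1 parts. Nkd1 went from 5.59 through 12.6 to 42.1 CPM and Nkd2 from 3.6 through 16.9 to 69.1 CPM. The d/d A2m Mmp2 part, at 48.4 CPM of Axin2, 24.7 of Nkd1 and 26.9 of Nkd2, lay between the Hsd11b2 Map2 and Tex15 Col7a1 parts for all 3. For Lef1 it lay below all 3 of these f/f parts.

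**Figure D2:**
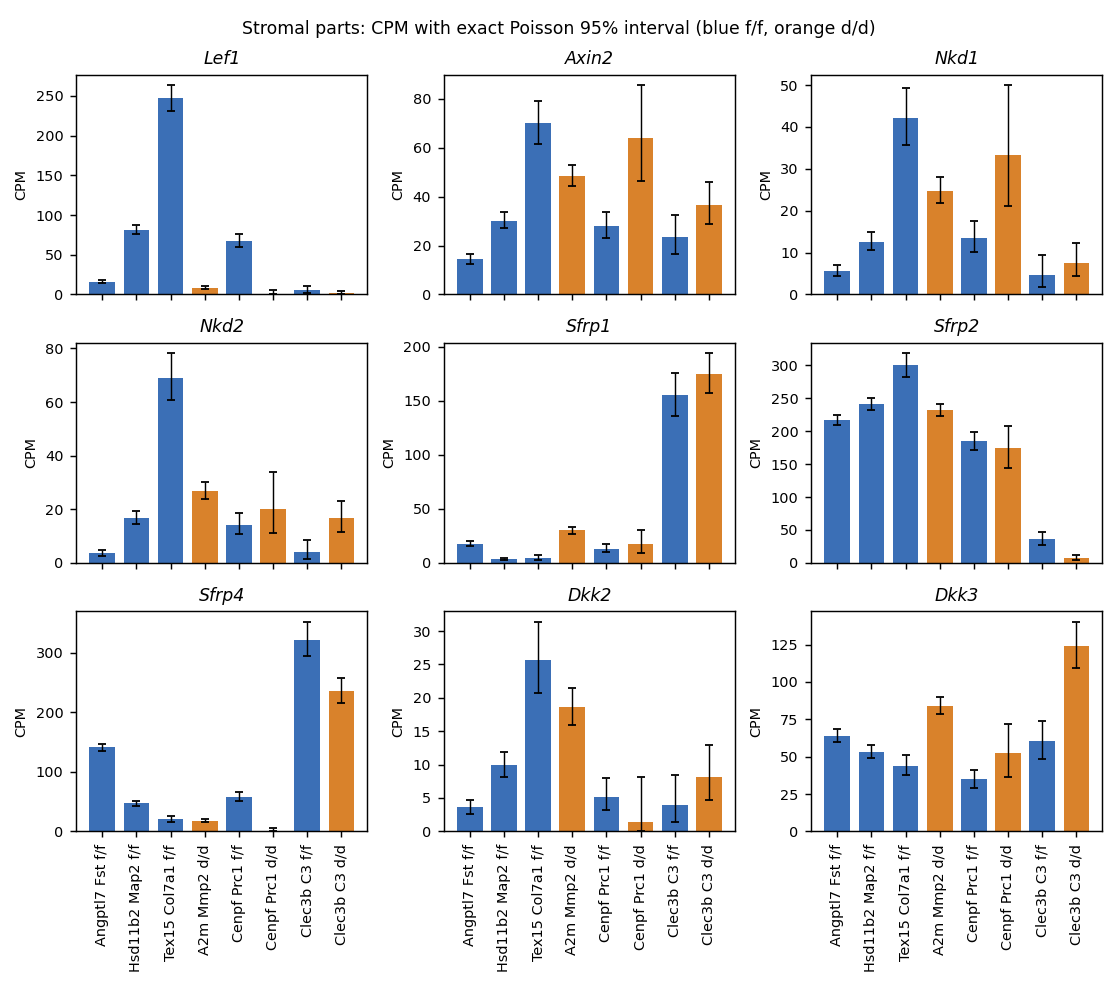
Bars give the CPM of 9 genes in the stromal parts of each library (blue f/f, orange d/d), with the exact Poisson 95% interval as error bars. Lef1, Axin2, Nkd1 and Nkd2 were each highest in the f/f Tex15 Col7a1 part, and Sfrp1 and Sfrp4 in the Clec3b C3 part of both libraries.

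Set against each large f/f part in turn, the A2m Mmp2 part gave different counts. Over the Angptl7 Fst part 1 of 9 genes was lower, Sfrp4, and 4 were higher, Axin2, Nkd1, Nkd2 and Dkk2, where 5.67% of all genes were lower and 6.6% higher. Over the Hsd11b2 Map2 part 2 were lower, Lef1 and Sfrp4, and 1 higher, Sfrp1, beside 6.06% and 7.1% of all genes. Over the Tex15 Col7a1 part 2 were lower, Lef1 and Nkd2, and 1 higher, Sfrp1, beside 7.92% and 7.13%. The Axin2 log2 fold was 1.73, 0.68 and -0.53 over the 3 parts, so its sign turned with the f/f part chosen. Nkd2 gave 2.90, 0.67 and -1.36. Lef1 gave -0.95, -3.27 and -4.87 and was below 0 against each, though under 2-fold against the first.

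Cells of the f/f Tex15 Col7a1 part were split by Lef1 detection after thinning to 2000 UMIs, as a description within 1 library. Axin2 was found in 10.1% of the 179 cells with a Lef1 UMI and in 14.6% of the 315 cells without. Nkd2 was found in 13.4% and 14.9% and Nkd1 in 9.50% and 6.67%. The Clopper-Pearson intervals of each pair overlapped.

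In the cycling stroma 5 of the 10 genes were measured, of which 2 were lower and 1 higher, beside 8.13% of all genes lower and 3.97% higher. Axin2 was the higher one, at 27.9 CPM in f/f (22.9 to 33.7) against 63.7 in d/d (46.3 to 85.6; 50 cells). Lef1 and Sfrp4 were the lower ones, each with 0 UMIs in d/d. Sfrp4 had 223 UMIs in f/f and was at least 13.3-fold lower in d/d by the same count of 3, with a conditional interval that ends at -3.42.

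SFRP proteins carry a Frizzled-like domain that binds Wnt ligands. Sfrp1 was the 1 gene of the set that was 2-fold higher in d/d stroma, at 17.5 CPM in f/f (16.1 to 19.0; 592 UMIs) against 53.1 in d/d (49.2 to 57.2; 691 UMIs). The log2 fold was 1.60 (1.44 to 1.76). Sfrp1 was highest in the Clec3b C3 part, where it stood at 155 CPM in f/f (136 to 176) against 175 in d/d (158 to 194). That part held 239 of the 592 f/f and 368 of the 691 d/d stromal UMIs of Sfrp1. The fold within that part was 0.17 (-0.06 to 0.42), an interval that holds 0. This part was 7.18% of the f/f and 29.7% of the d/d stroma. Outside it Sfrp1 stood at 17.8 CPM in the f/f Angptl7 Fst part, 3.26 and 4.59 CPM in the Hsd11b2 Map2 and Tex15 Col7a1 parts, and 30.1 CPM in the d/d A2m Mmp2 part (26.8 to 33.6). The log2 fold of the A2m Mmp2 part over these f/f parts was 0.76, 3.20 and 2.71. How much of the stromal fold comes from the makeup of the stroma was not tested.

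Sfrp4 was highest in the same Clec3b C3 part, at 322 CPM in f/f (294 to 352) against 235 in d/d (215 to 257), a log2 fold of -0.45 (-0.64 to -0.27). Of the other f/f parts, Angptl7 Fst had 141 CPM, Hsd11b2 Map2 47.3 and Tex15 Col7a1 fewer (interval 15.7 to 25.1), an order opposite to that of Lef1. The d/d A2m Mmp2 part had 17.8 CPM (15.3 to 20.6). Over the whole stroma Sfrp4 stood at 96.4 CPM in f/f against 51.8 in d/d, a log2 fold of -0.90 (-1.02 to -0.78), but -0.38 as a mean of CPM per cell. The highest count in a single cell was 25 UMIs (f/f) and 24 (d/d).

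Sfrp2 differed little over the stroma as a whole, at 222 CPM in f/f against 192 in d/d, a log2 fold of -0.21 (-0.27 to -0.14). As a mean of CPM per cell the fold was -0.58. It was spread over the 3 large f/f parts, from 217 CPM in the Angptl7 Fst part to 300 CPM in the Tex15 Col7a1 part (282 to 318), with 232 CPM in the d/d A2m Mmp2 part. The Clec3b C3 part was the low one, at 35.7 CPM in f/f (55 UMIs) against 7.61 in d/d (16 UMIs).

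Dkk2 encodes a Dickkopf protein that binds LRP coreceptors. It stood at 8.28 CPM in f/f stroma (7.34 to 9.31) against 15.8 in d/d stroma (13.7 to 18.1), a log2 fold of 0.93 (0.66 to 1.19). Among f/f parts it was highest in Tex15 Col7a1, at 25.7 CPM (20.8 to 31.4), and it stood at 18.6 CPM in the d/d A2m Mmp2 part (16.0 to 21.4). Dkk3 encodes a divergent member of the family whose action on Wnt signalling is less settled. It stood at 54.8 CPM in f/f stroma (52.3 to 57.3) against 89.1 in d/d stroma (84.0 to 94.4), a log2 fold of 0.70 (0.59 to 0.81).

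In the shared Clec3b C3 part 4 genes had at least 100 UMIs, of which 0 were lower and 1, Dkk3, was higher, beside 2.37% of all genes lower and 4.08% higher. Dkk3 stood at 60.4 CPM in f/f (48.7 to 74.0; 93 UMIs) against 124 in d/d (110 to 140; 261 UMIs), a log2 fold of 1.04 (0.69 to 1.40). Axin2 stood at 23.4 CPM in f/f against 36.6 in d/d, a log2 fold of 0.65 (0.06 to 1.26). Below 100 UMIs in this part, Sfrp2 had a log2 fold of -2.23 (-3.13 to -1.41), Nkd2 of 2.10 (0.83 to 3.64; 6 and 35 UMIs) and Dkk2 of 1.05 (-0.36 to 2.69). The fold of Dkk3 had the same sign in the cycling part, at 0.58 (0.01 to 1.12).

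**Figure D3:**
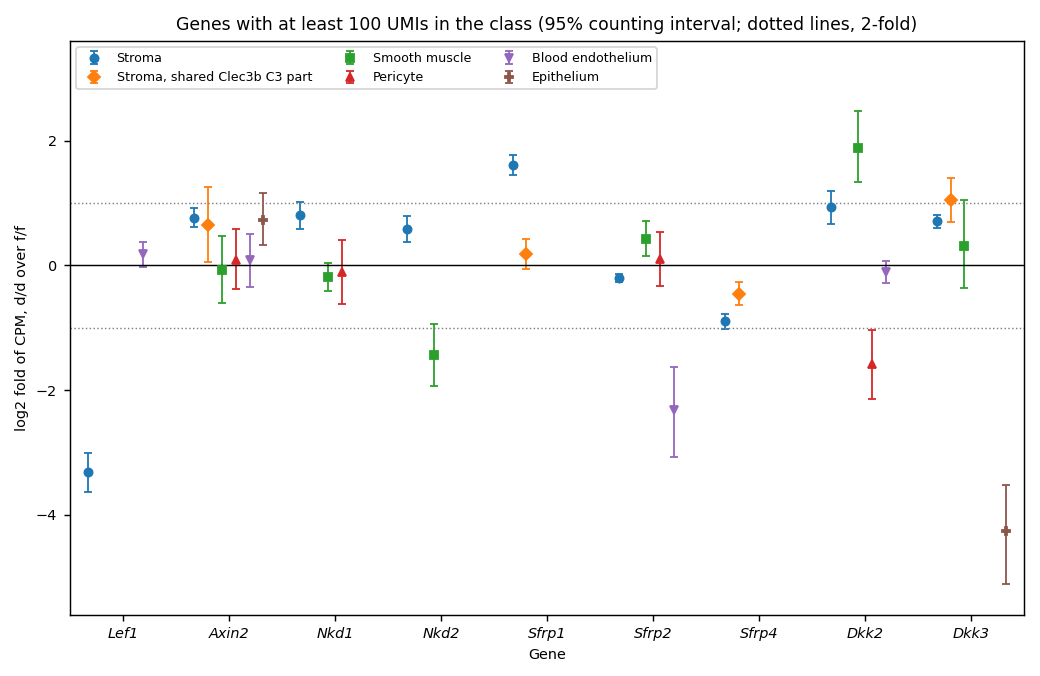
Points give the log2 fold of CPM, d/d over f/f, for each gene with at least 100 UMIs in a class, with the conditional exact 95% counting interval; dotted lines mark 2-fold. Lef1 stood at -3.32 in stroma and 0.17 in blood endothelium, and Dkk2 at 1.88 in smooth muscle and -1.58 in pericytes. Wif1 had fewer than 100 UMIs in each class and is not drawn.

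In the epithelium Dkk3 and Sfrp2 had lower and Wif1 and Axin2 higher levels in d/d. Its cells did not match between the libraries: of 178 f/f cells, 105 were glandular-like and 73 luminal-like, while 143 of 145 d/d cells met neither set of markers. The d/d cells were also deeper, with a median of 16171 against 9289 UMIs. Among them 15 cells formed a sub-cluster without f/f cells, at a median of 49090 UMIs. Its leading genes included the mitotic genes Ube2c, Cdk1 and Cenpf, and its part in the summed d/d levels was not tested. Glandular markers summed to 3852 CPM in f/f against 1032 in d/d, and luminal markers to 1375 and 51.5 CPM. A further 95 f/f and 19 d/d cells with near-equal scores for stroma and smooth muscle were set aside. Only Dkk3 and Axin2 reached 100 UMIs, of which 1 was lower, beside 9.76% of all genes lower. Of the genes called in epithelium 39.5% were higher, against 58.5% with TMM scaling (trimmed mean of M values), which moved the median of all genes from -0.13 to 0.07.

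Dkk3 stood at 74.4 CPM in f/f epithelium (63.4 to 86.9; 161 UMIs) against 3.87 in d/d (2.21 to 6.29; 16 UMIs), a log2 fold of -4.27 (-5.11 to -3.52). Of the f/f UMIs 155 lay in glandular-like cells, at 139 CPM (118 to 163), and 6 in luminal-like cells, at 5.73 CPM (2.10 to 12.5). The d/d level was thus within the luminal-like interval. Against glandular-like cells alone the log2 fold was -5.17 (-6.01 to -4.42), where 7.86% of all genes were lower. At least 1 Dkk3 UMI was found in 65.7% of glandular-like cells, 8.22% of luminal-like cells and 6.90% of d/d cells. Dkk3 was 1 of the 10 leading genes of the glandular-like sub-cluster, although it had been left out of the clustering.

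Sfrp2 in epithelium stood at 17.6 CPM in f/f (38 UMIs) against 1.94 from d/d (8 UMIs). Its log2 fold there was -3.18 (-4.49 to -2.06), on fewer than 100 UMIs. With the cells set aside kept it was -4.25. The 7 stromal markers stood at 4.29% of their stromal level in f/f against 0.757% in d/d epithelium, and their part in this fold was not tested.

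Wif1, a secreted protein that holds Wnt ligands away from their receptors, was found almost only in d/d epithelium. Over all kept cells no f/f cell had a UMI, and the d/d cells had 48, of which 43 lay in epithelium. The d/d epithelial level was 10.4 CPM (7.53 to 14.0), at least 7.50-fold above f/f epithelium, counting 0 as 3 UMIs over the class, with a conditional interval that starts at a log2 fold of 2.55. A UMI was found in 23 of 145 d/d cells, 15.9% (10.3 to 22.8), and in 0 of 178 f/f cells, which allows a share of up to 1.69% by 3 counts of the total (2.05% by Clopper-Pearson). In d/d stroma 0.117% of cells had one, at a median of 6959 UMIs. With cells thinned to 2000 UMIs the d/d epithelial share was 2.11% and the f/f share 0%. The most UMIs in a single cell was 5.

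Axin2 in epithelium stood at 30.1 CPM in f/f (23.2 to 38.3) against 49.8 in d/d (43.3 to 57.1), a log2 fold of 0.73 (0.32 to 1.15). Luminal-like f/f cells had 10.5 CPM (5.24 to 18.8; 11 UMIs) and glandular-like f/f cells 48.4 CPM (36.4 to 63.1; 54 UMIs). The d/d cells lay with the glandular-like cells, at a log2 fold of 0.04 (-0.40 to 0.50), and above the luminal-like cells, at 2.25 (1.38 to 3.27), where 12.8% of all genes were higher.

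In the myometrium Nkd1 was at like levels and Dkk2 was not. Smooth muscle was 446 f/f and 1478 d/d cells, and of 6 genes measured 1 was lower and 1 higher, beside 2.79% of all genes lower and 3.82% higher. Nkd1 stood at 104 CPM in f/f (90.1 to 119) against 90.8 in d/d (84.6 to 97.4), a log2 fold of -0.19 (-0.42 to 0.04). Dkk2 stood at 14.9 CPM in f/f (9.95 to 21.3; 29 UMIs) against 54.7 in d/d (49.9 to 59.8; 476 UMIs), a log2 fold of 1.88 (1.34 to 2.47). It lay almost wholly in the Pcp4 Actg2 part, at 20.9 CPM in f/f against 92.4 in d/d, a log2 fold of 2.15 (1.60 to 2.74). In the Acta1 Tes part Dkk2 had 0 UMIs in 150 f/f cells and 21 in 580 d/d cells. Scaling by TMM moved the share of called genes that were higher in smooth muscle from 57.8% to 78.6%, and without mitochondrial and ribosomal protein genes it was 67.6%.

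Nkd2 was the lower gene in smooth muscle, at 28.7 CPM in f/f (21.7 to 37.2; 56 UMIs) against 10.6 in d/d (8.52 to 13.0; 92 UMIs), a log2 fold of -1.44 (-1.94 to -0.93). With doublets kept it was -0.95 and under 2-fold. In the Pcp4 Actg2 part, where 2.32% of all genes were lower and 4.46% higher, Nkd2 was the 1 lower of 4 genes and Dkk2 the 1 higher. The Nkd2 fold there was -1.47 (-2.01 to -0.92). Sfrp2 marked the other part, Acta1 Tes, at 176 CPM in f/f (143 to 214) against 187 in d/d (173 to 201). Stromal markers stood at 28.0% of their stromal level in f/f and 10.3% in d/d smooth muscle, and their part in these folds was not tested.

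In pericytes, the cells around capillaries, Dkk2 went the other way. Of 4 genes measured 1 was lower, beside 5.72% of all genes. Dkk2 stood at 49.9 CPM in f/f (40.1 to 61.2; 91 UMIs) against 16.7 in d/d (12.0 to 22.6; 42 UMIs), a log2 fold of -1.58 (-2.14 to -1.04). Different clusters held most of the class, Rgs5 Higd1b with 89.1% of f/f pericytes and Ccl11 Rgs5 with 83.1% of d/d pericytes. Within Rgs5 Higd1b the fold was -0.98 (-1.91 to -0.16), under 2-fold, on 87 and 14 UMIs. Stromal markers in pericytes stood at 58.6% of their stromal level in f/f against 37.5% in d/d. Their part was not tested. Axin2, at 35.1 CPM in f/f against 37.4 in d/d, and Nkd1, at 31.8 and 29.4 CPM, had intervals of the fold that hold 0. Of the genes called in pericytes 47.0% were higher, and 67.0% with TMM scaling, which moved the median of all genes from -0.16 to 0.01.

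Blood endothelium held the most Dkk2 of the classes compared. It stood at 121 CPM in f/f (111 to 131; 552 UMIs) against 112 in d/d (103 to 122; 534 UMIs), a log2 fold of -0.10 (-0.28 to 0.07). The cluster led by Gja5, a connexin of arterial endothelium, and Sema3g had 487 CPM in f/f (408 to 576; 42 cells) against 421 in d/d (353 to 498; 106 cells). The Flt1 Selp cluster had 96.8 CPM in f/f against 89.9 in d/d. The 2 libraries overlapped in both clusters.

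Of 4 genes measured in blood endothelium 1 was lower, Sfrp2, beside 2.54% of all genes. Sfrp2 stood at 22.1 CPM in f/f (18.0 to 26.8) against 4.41 in d/d (2.73 to 6.74), a log2 fold of -2.32 (-3.07 to -1.63). The 7 stromal markers moved the same way, from 8.19% of their stromal level in f/f to 2.5% in d/d, and Sfrp2 stood at 9.92% and 2.29% of its own. Macrophages gave a like picture, with Sfrp2 at 110 CPM in f/f against 19.1 in d/d. It was the 1 gene measured there and was lower, beside 9.38% of all genes. Stromal markers in macrophages stood at 39.7% of their stromal level in f/f against 4.26% in d/d, and the median depth was 1992 and 4362 UMIs. The part of this stromal signal in the Sfrp2 folds was not tested. Of the genes called in macrophages 58.3% were higher, 83.2% with TMM scaling, which moved the median of all genes from -0.09 to 0.37.

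**Figure D4:**
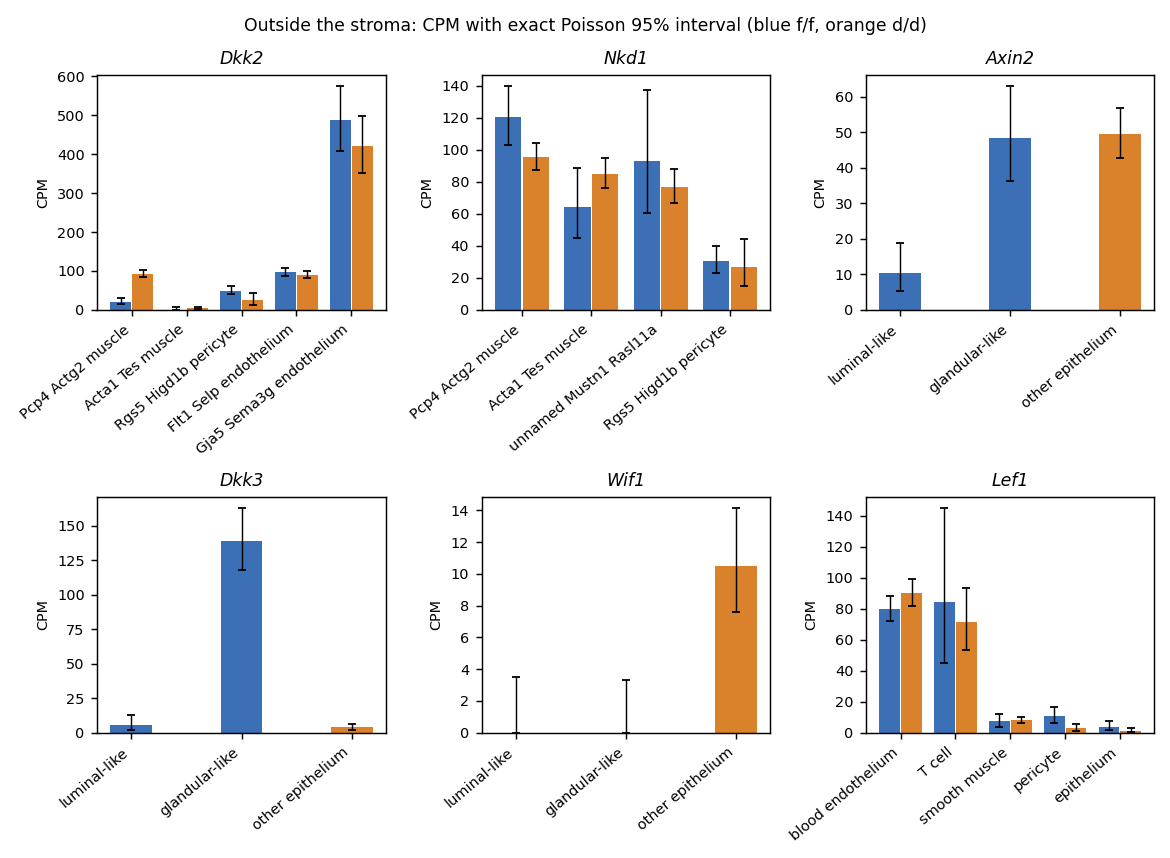
Bars give CPM outside the stroma (blue f/f, orange d/d) with the exact Poisson 95% interval. Dkk2 reached 487 CPM in f/f against 421 in d/d Gja5 Sema3g endothelium, Dkk3 139 CPM in f/f glandular-like cells, and Wif1 was found in the d/d epithelium, with 0 UMIs in both f/f epithelial groups.

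The rest of the pathway was followed with a list of 96 other Wnt genes, of which 95 were found. In stroma 65 had at least 100 UMIs, and 5 were lower, 10 higher and 50 neither, with a median log2 fold of 0.05. All genes had a median of -0.14, with 6.4% lower and 6.92% higher, as above. Among 6 ligands Wnt4 (1.80) and Wnt5b (1.73) were higher and Wnt6 (-1.06) lower. Wnt5a, a ligand of stroma, stood at 286 CPM in f/f against 530 in d/d, a log2 fold of 0.89. Among 13 receptors and coreceptors, Fzd4 (1.36), Fzd5 (1.36) and Fzd6 (1.22) were higher, on 75 to 115 UMIs per library in f/f and 74 to 103 in d/d. Among 6 other antagonists Trabd2b, a protease that cleaves Wnt proteins, was higher (1.66), while Frzb stood at 0.49 and Apcdd1 at -0.74.

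Inside the cell the relay showed no 2-fold difference. The 12 genes of the destruction complex and relay included Axin1 at 0.53, Csnk1a1 at -0.44, Tnks2 at -0.57 and Dvl1 at -0.67. Neither the 3 R-spondins and receptors measured, with Rspo3 at 0.71 and Lgr4 at 0.60, nor the ligand maturation genes Porcn (0.02) and Wls (0.14) passed 2-fold. Among 14 nuclear partners Tcf7, a relative of Lef1, was lower (-1.18, -1.46 to -0.90), at 21.2 CPM in f/f against 9.38 in d/d. The corepressor genes Tle2 (1.42) and Tle3 (1.04) were higher, and Tle1 stood at -0.49. Among 9 other common targets Fst (-2.59), Ccnd1 (-2.01) and Nog (-1.19) were lower, and Jun (1.75) and Bambi (1.14) higher. Nog is outside the 4 genes per group that the rule names and is given to complete the count. Jun is also an immediate early gene, and 15 such genes together were higher in d/d stroma, as given above. In the shared Clec3b C3 part 40 of the 95 were measured, with a median of 0.08. There 1 was lower, Fst (-2.15), and 3 higher, Trabd2b (1.29), Tle3 (1.21) and Myc (1.02), of which Myc is named after its value was seen.

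**Figure D5:**
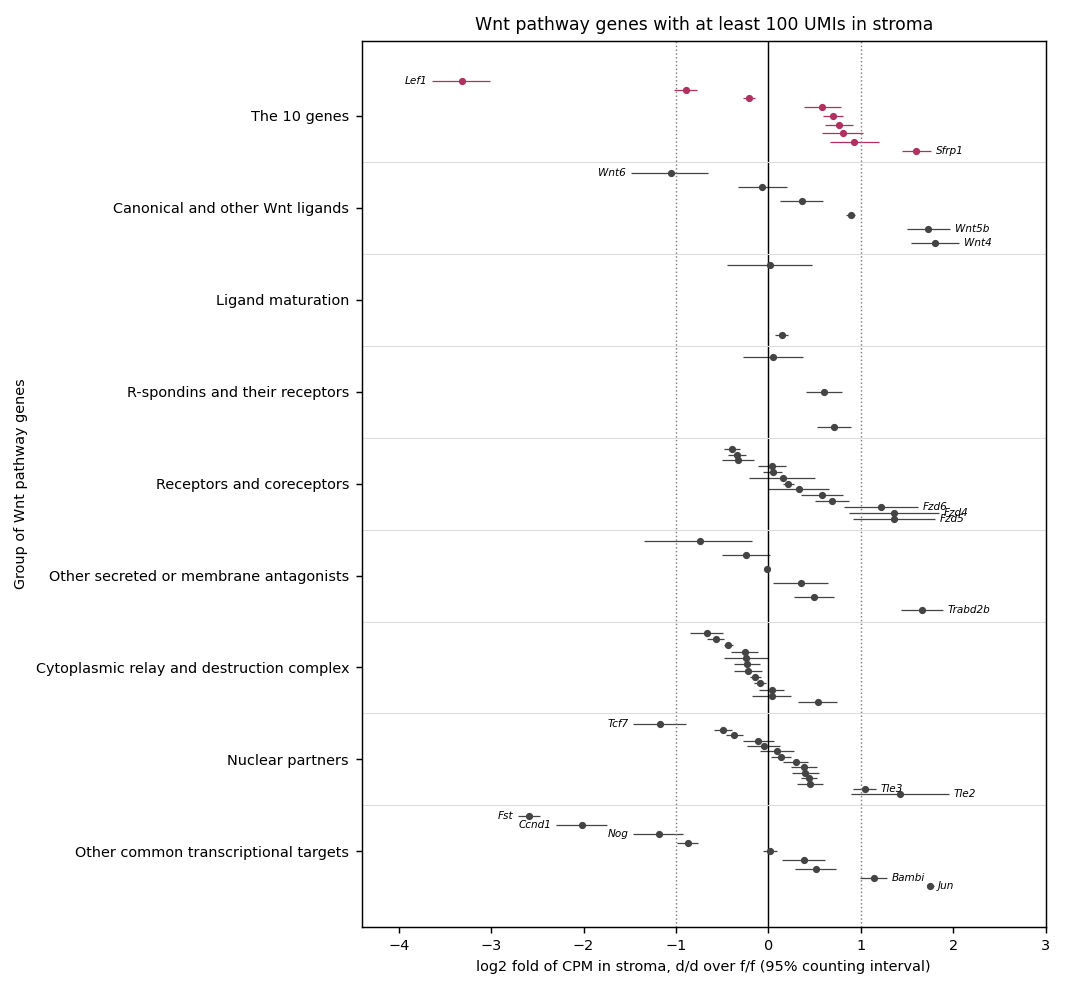
Each point is a Wnt pathway gene with at least 100 UMIs in stroma, placed by its log2 fold of CPM, d/d over f/f, with its 95% counting interval, in rows by role; names mark genes past 2-fold (dotted lines). Lef1 lay at -3.32 and Fst at -2.59, while none of the 12 relay genes passed 2-fold.

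Epithelium showed other members of the same list. Of 40 genes measured there 4 were lower and 7 higher, beside 9.76% of all genes lower and 6.37% higher. Among 9 common targets 0 were lower and 4 higher: Ccnd1 (2.77, 2.32 to 3.25), Sp5 (2.42, 1.48 to 3.52), Cd44 (1.24) and Myc (1.07). Sp5 encodes a transcription factor that Wnt signalling induces, and it stood at 4.62 CPM in f/f against 24.7 in d/d. Both ligands measured were lower, Wnt11 with 187 f/f UMIs against 1 from d/d, and Wnt5a at -1.14. The other lower genes were Fzd3 (-1.78) and Igfbp4 (-1.61). These epithelial genes were chosen after their values were seen. The part in their folds of the 15 deep d/d cells with mitotic leading genes was not tested. Ccnd1 was thus lower in d/d stroma and higher in d/d epithelium, at 20.3 CPM in f/f against 139 in d/d epithelium. It was also lower in d/d smooth muscle, at 298 CPM in f/f against 87.0 in d/d, a log2 fold of -1.78 (-1.93 to -1.62). The difference between the classes was not tested.

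The genes most like each of the 10 were sought over 24 groups of cells and library, by Pearson's r of log2(CPM + 10) among 10789 genes with at least 500 UMIs. Groups of 1 library share its depth and free RNA, so r is a description. For Lef1 they were Rapgef4 (0.79), Tcf7 (0.78) and Mrpl4 (0.72). For Nkd1 they were the muscle genes Mylk (0.88) and Cacna1c (0.87), and Hacd1 (0.87). Sfrp1 was closest to Cpz (0.97), Adgrd1 (0.97) and Dpep1 (0.93), Sfrp2 to Wfdc1 (0.95), Pfn2 (0.94) and Ndp (0.94), and Sfrp4 to Spon2 (0.92), Dnm1 (0.91) and Col14a1 (0.90). Dkk2 was closest to Fam13c (0.88), Bcam (0.84) and Kctd12b (0.83), and Dkk3 to Arsj (0.81), Tsku (0.78) and Sdk1 (0.74). Axin2 was closest to 2700062C07Rik (0.81), Traf4 (0.78) and Trmt5 (0.77), and Nkd2 to Prickle2 (0.80), Gpr161 (0.78) and Zmat3 (0.78). Within the set the highest values were 0.78 for Sfrp1 with Sfrp4 and 0.71 for Nkd1 with Nkd2.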

How the data were processed

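Single-cell 3′ tag libraries of whole uterus were compared, 1 per genotype. Per the file headers, the deposited files are sparse matrices of integers, here UMI counts that were not normalized. Cell Ranger 3.0.1 and mm10 are named per the submitters' processing notes, and cellranger 6.0.1 per the file headers. The 10 genes, the marker and pathway lists and the comparisons were chosen with earlier results of these data known.

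Cells with at least 1000 UMIs, 500 genes and at most 20% mitochondrial UMIs were kept. Scrublet (scanpy 1.11.5) marked 533 f/f and 355 d/d doublets by a rate of 0.8% per 1000 barcodes, since its automatic threshold marked 0 in f/f. Cells were clustered on 2000 variable genes without the 10 genes, 30 components and 15 neighbours, by Leiden at resolution 1, and epithelium again at 0.5 (leidenalg 0.10.2). A cluster took a class with at least 3 detected markers, a mean marker log2(CPM + 10) at least 1 above the 25th percentile of clusters, and a lead of 0.5, a rule set after seeing the data. Classes with 100 cells in both libraries were compared, on UMIs summed per class. A shared stromal part held 5% of the stroma of each library. TMM factors came from edgeR 4.0.16. The intervals were also run on simulated Poisson counts. The intervals assume such counts, so that run cannot judge them for spread between cells or libraries.

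Named were the 10 genes, up to 4 genes per pathway group ranked in stroma by the interval bound nearest 0, the 3 genes most like each of the 10 with 500 UMIs, Mettl14, and cluster leading genes. Where identifiers shared a symbol, 36 were kept apart.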

Additional observations from a re-analysis of the deposited data

Results flagged for a closer look

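Dkk2 differed between the libraries in opposite directions in 2 mural and muscle classes. Its log2 fold, d/d over f/f, was 1.88 in smooth muscle (1.34 to 2.47) and -1.58 in pericytes (-2.14 to -1.04). Over the 9 alternatives in smooth muscle it ran from 1.38 to 2.13, and over the 10 in pericytes from -2.02 to -1.40. The difference between the classes was not tested, since each genotype has 1 library. In pericytes different clusters held most cells of each library, and within the Rgs5 Higd1b cluster the fold was -0.98.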

How the results depend on the processing

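Among the 10 genes in stroma the counts of 1 lower and 1 higher both held under 9 of 11 alternatives. At 1.5-fold 2 were lower and 5 higher. With genes of at least 1 UMI 2 were higher, the added gene being Wif1, on 2 UMIs. The Lef1 log2 fold in stroma ran from -3.41 to -3.24 over 10 alternatives, and in the shared Clec3b C3 part from -3.35 to -1.79 over 8, on 3 d/d UMIs. Another 48 folds gave 441 values, of which 422 kept their sign and no fold past 2-fold changed sign. Of the 441 values 19 lay outside the counting interval of the main fold. Alternatives that left out the cycling stroma, kept the epithelial cells set aside, or counted the unnamed cluster with the pericytes were chosen after seeing the data. No paired analysis was possible because each genotype has 1 library and no result comes from a test. Few UMIs limit Lef1 in the shared part and Wif1 throughout.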

Other observations

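The cluster that stayed unnamed, led by Mustn1 and Rasl11a, with near-equal markers of pericytes and smooth muscle, was 0.930% of f/f cells (66 cells) and 9.79% of d/d cells (585 cells). Nkd1 stood there at 92.9 CPM in f/f (60.1 to 137) against 76.6 in d/d (66.5 to 87.9), near its smooth muscle level. Counted with the pericytes, it moved the Dkk2 log2 fold from -1.58 to -2.02 and that of Nkd1 from -0.11 to 0.44.

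Mesothelium was found in the f/f library alone (36 cells). It had Axin2 at 68.7 CPM (36.6 to 118; 13 UMIs) and Nkd1 at 63.5 CPM (32.8 to 111; 12 UMIs).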
